A study of Homo sapiens with 12 samples.

Results

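The abundant long noncoding RNAs were described in 3 lines of head and neck squamous cell carcinoma (HNSCC), from droplet single-cell RNA sequencing (scRNA-seq). The set was given by name as 6 genes, MALAT1, NEAT1, H19, MIR205HG, GAS5 and SNHG1, and its members were the lines of the count tables that carry those names. MALAT1 and NEAT1 were analysed, which is 2 of the 6 names and 2 of 33514 gene symbols in the tables, while H19, MIR205HG, GAS5 and SNHG1 were not analysed here. The established lines SCC1 (UM-SCC-1), SCC6 (UM-SCC-6) and SCC25 had received 100 nM of the EGFR-blocking antibody cetuximab on each of 5 days. The untreated controls had phosphate-buffered saline (PBS) instead over those 5 days. This gave 6 groups of 2 replicates, 12 samples and 23914 cells, and nothing in the labels said that replicates were separate cultures, so p-values measure the spread between these samples, which may be technical. The samples held 961 to 2854 cells and 57057402 to 112170073 unique molecular identifiers (UMIs, each standing for 1 captured RNA molecule). The median cell of a sample held 24078.5 to 54864 UMIs.

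MALAT1 and NEAT1 are nuclear RNAs that do not code for protein. MALAT1 gathers in nuclear speckles, bodies rich in splicing factors, and NEAT1 is the RNA around which paraspeckles form, bodies that hold RNA-binding proteins such as SFPQ and NONO. NEAT1 is made as a short polyadenylated transcript and as a long one that builds the paraspeckle, and its level is known to respond to cell stress. The other named RNAs have other roles: H19 is an imprinted RNA transcribed next to IGF2, MIR205HG hosts the epithelial microRNA miR-205, and GAS5 and SNHG1 host small nucleolar RNAs (snoRNAs).

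Both members lie on chromosome 11. In the RefSeq annotation of GRCh38, the build named in the submitters' processing notes, NEAT1 spans chr11:65422798-65445540 (22743 bases) and MALAT1 spans chr11:65497738-65506516 (8779 bases), with 52197 bases between them. The libraries were primed at runs of A, so the 3′ ends and inner A runs of these transcripts are the stretches at which a read could start. For each gene 1 such stretch is shown here from the GENCODE transcripts, with a run of A or the polyadenylation signal AATAAA in capitals.
MALAT1: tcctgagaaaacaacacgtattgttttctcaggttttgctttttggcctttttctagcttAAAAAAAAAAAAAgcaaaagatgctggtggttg
NEAT1 short: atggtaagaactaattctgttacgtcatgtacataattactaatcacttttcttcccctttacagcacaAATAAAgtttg
The MALAT1 stretch is bases 8399 to 8491 of a transcript of 10434 bases, and its 13 A were the only run of at least 10 A in that transcript. The short NEAT1 stretch is the last 80 of 3301 bases and held no run of 10 A, while the long NEAT1 transcript of 22743 bases held 5 such runs, none of which is shown. Of 14790 annotated transcripts of at least 5000 bases, 35.4% held a run of at least 10 A. The counts are per gene, so the short and the long NEAT1 transcript were not told apart. The antisense gene TALAM1 overlaps MALAT1, and the sources used here do not say whether counting used strand, so the MALAT1 counts could include or lose reads of that partner.

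The line labels were compared with squamous markers first. In cells brought to the same depth of 15000 UMIs, the epithelial markers SFN, DSP and EPCAM had a UMI in 59.2% to 99.7% of the cells of every sample, and TP63 in 8.33% to 58.5%. KRT5, a basal keratin, had a UMI in 82.2% to 100% of SCC1 and SCC25 cells but in 0.867% to 4.24% of SCC6 cells, and KRT14 in 0.575% to 1.81% of SCC6 cells, so these basal keratins were nearly absent in SCC6. KRT6A, another squamous keratin, had a UMI in 90.2% to 98.6% of SCC25 cells but in 11.2% to 17.3% of SCC1 cells and 2.20% to 14.1% of SCC6 cells. Of the markers of other cells, PTPRC, CD3E, PECAM1, ALB and HBB were found in 0 to 0.4% of cells, and CD68 in 4.13% to 87.6%. Between 1 and 13 cell barcodes were shared by any pair of samples.

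MALAT1 took between 0.554% and 1.44% of all UMIs of a sample, and NEAT1 between 0.0435% and 0.275%. Levels are given below as CPM, the UMIs of a gene relative to a sample's total after scaling by the trimmed mean of M-values (TMM), with the test of edgeR's quasi-likelihood fit of all 12 samples and Benjamini-Hochberg adjustment over 17897 genes, called below an adjusted p of 0.05. The levels of the 2 genes are not compared with each other, while their spread over cells is.

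NEAT1 was higher in untreated SCC25 than in both other untreated lines. Untreated SCC25 had 2773 and 2055 CPM, untreated SCC1 had 823 and 662, and untreated SCC6 had 960 and 486. The SCC25 replicates lay above all 4 other untreated replicates, as for 21% of all genes, and the ranges of SCC1 and SCC6 overlapped. The difference between SCC25 and SCC1 was 1.70 ± 0.39 (SE) on the log2 scale, or 3.25-fold (adjusted p = 0.00631), and that between SCC25 and SCC6 was 1.74 ± 0.39, or 3.34-fold (adjusted p = 0.00563). Differences between lines were common: 40.8% of all genes tested were called between SCC25 and SCC1 and 23.4% were called higher in SCC25, with 40.9% and 22.2% for SCC25 against SCC6, so NEAT1 was 1 of many genes that set SCC25 apart. Between SCC6 and SCC1 the NEAT1 difference was -0.04 ± 0.38, with a 95% confidence interval from -0.89 to 0.81, and it did not pass the test (adjusted p = 0.955), in a comparison where 40.2% of genes were called. Without replicate 2 of untreated SCC1 the call against SCC1 was lost, at 1.55 ± 0.52 (adjusted p = 0.0533).

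MALAT1 followed the same order of lines with smaller differences. Untreated SCC25 had 14526 and 13856 CPM, untreated SCC1 9119 and 7977, and untreated SCC6 10155 and 6198. The SCC25 values again lay above the other 4. The difference was 0.73 ± 0.31 against SCC1 (adjusted p = 0.0876) and 0.80 ± 0.31 against SCC6 (adjusted p = 0.0664), neither of which passed. Both passed once a replicate term shared by the lines was in the fit, at 0.74 ± 0.27 (adjusted p = 0.0410) and 0.83 ± 0.27 (adjusted p = 0.0261), where 54.7% and 54.4% of all genes passed. By DESeq2 the difference from SCC1 did not pass at 0.77 (adjusted p = 0.0608) and that from SCC6 did at 0.82 (adjusted p = 0.0442), where 43% and 43.2% of genes passed. Between SCC6 and SCC1 the MALAT1 difference was -0.06 ± 0.31, with an interval from -0.76 to 0.63.

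The NEAT1 difference between lines was of like size among cells of like depth. Among cells of 30000 to 50000 UMIs alone, NEAT1 was 1.53 ± 0.33 higher in SCC25 than in SCC1 (adjusted p = 0.00498) and 1.82 ± 0.33 higher than in SCC6 (adjusted p = 0.00196). In these comparisons 5647 and 5885 of 15909 genes were called. With each cell weighted equally and limma as the test, the differences were 1.5 ± 0.38 (adjusted p = 0.0146) and 2.01 ± 0.38 (adjusted p = 0.00422). Over all 6 groups, the order of mean NEAT1 levels was SCC25 with PBS, SCC25 with cetuximab, SCC1 with cetuximab, SCC1 with PBS, SCC6 with PBS and SCC6 with cetuximab. Only the second and the third of these neighbours had ranges that did not overlap, so all 4 SCC25 samples lay above all 8 others, as they did for 13.2% of all genes. The order for MALAT1 was SCC25 with PBS, SCC25 with cetuximab, SCC1 with cetuximab, SCC6 with cetuximab, SCC1 with PBS and SCC6 with PBS, and only the first pair of neighbours did not overlap.

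**Figure D1:**
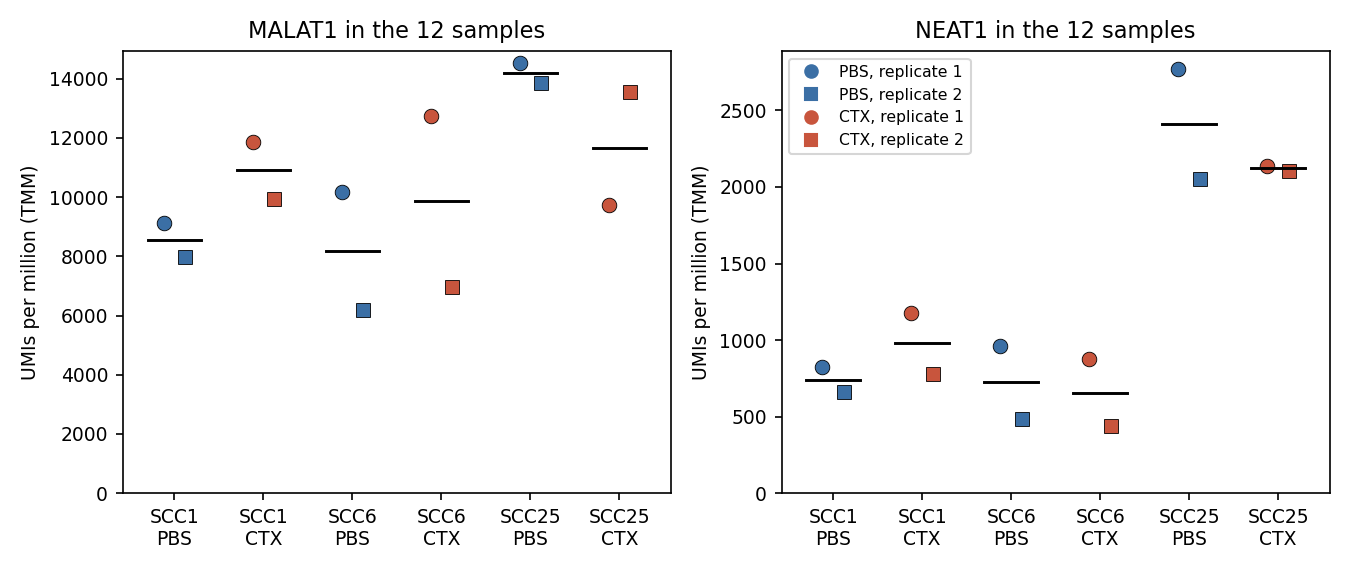
CPM (TMM scaling, linear axes from 0) of MALAT1 and NEAT1 in each of the 12 samples, with PBS in blue, cetuximab (CTX) in red, replicate 1 as circles, replicate 2 as squares and a bar at the mean of each group. The 4 SCC25 samples lie between 2055 and 2773 for NEAT1, above the 8 others, and for MALAT1 both untreated SCC25 samples lie above the 10 others.

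Cetuximab was followed by no called change of MALAT1 or NEAT1 in any line. In SCC1, MALAT1 was at 9119 and 7977 CPM with PBS and at 11868 and 9947 with cetuximab, and the groups did not overlap, as for 22.3% of all genes in that direction and line. The difference was 0.35 ± 0.31 on the log2 scale, with a 95% interval from -0.34 to 1.05 (adjusted p = 0.876). In SCC6 it was at 10155 and 6198 with PBS and at 12752 and 6969 with cetuximab, and the groups overlapped, with a difference of 0.27 ± 0.31 (adjusted p = 0.689). In SCC25 it was at 14526 and 13856 with PBS and at 9738 and 13562 with cetuximab. Both treated values lay below both untreated ones there, as for 15.3% of genes, and the difference was -0.28 ± 0.31 (adjusted p = 1). It was -0.050 without replicate 1 of treated SCC25 and -0.032 among cells of 30000 to 50000 UMIs.

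NEAT1 in SCC1 was at 823 and 662 CPM with PBS and at 1179 and 779 with cetuximab, groups that overlapped, with a difference of 0.40 ± 0.38 and an interval from -0.45 to 1.25 (adjusted p = 0.902). Without replicate 1 of treated SCC1 it was 0.062, and without replicate 2 it was 0.67. In SCC6 it was at 960 and 486 with PBS and at 874 and 440 with cetuximab, a difference of -0.14 ± 0.38 (adjusted p = 0.888). In SCC25 it was at 2773 and 2055 with PBS and at 2139 and 2103 with cetuximab, a difference of -0.19 ± 0.38 (adjusted p = 1). SCC6 and SCC25 groups overlapped as well. Across the 3 lines the cetuximab difference was 0.11 ± 0.18 for MALAT1, with an interval from -0.29 to 0.51 (adjusted p = 0.784), and 0.02 ± 0.22 for NEAT1, with an interval from -0.44 to 0.49 (adjusted p = 0.969).

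These counts of 0 members called stand beside 0.0168% of all genes called in SCC1, 3.81% in SCC6, 0% in SCC25 and 3.67% across lines by edgeR. At an unadjusted p under 0.05, 1041 genes passed in SCC25 and neither member passed in any line. DESeq2 also called neither member in any line or across lines, where it called 1.77%, 9.91% and 0.639% of genes in SCC1, SCC6 and SCC25 and 10.1% across lines.

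Samples with the same replicate number deviated together, so each treated replicate was also set beside the untreated replicate of the same number. For MALAT1, the ratio of cetuximab to PBS was 1.30 and 1.25 for SCC1, 1.26 and 1.12 for SCC6, and 0.670 and 0.979 for SCC25, so it was higher in 4 of 6 pairs. For NEAT1 the ratios were 1.43 and 1.18 for SCC1, 0.910 and 0.904 for SCC6, and 0.772 and 1.02 for SCC25, so it was higher in 3 of 6 pairs. With a replicate block nested in line the standard errors were smaller and the share of all genes called was 4.45% in SCC1, 20.1% in SCC6, 0.978% in SCC25 and 11.6% across lines, but neither member was called. The blocked differences for MALAT1 were 0.35 ± 0.13 in SCC1 (unadjusted p = 0.0232 by edgeR, adjusted p = 0.170), 0.25 ± 0.13 in SCC6 (adjusted p = 0.192) and -0.30 ± 0.13 in SCC25 (unadjusted p = 0.0417, adjusted p = 0.311). For NEAT1 they were 0.38 ± 0.13 in SCC1 (unadjusted p = 0.0171, adjusted p = 0.144), -0.14 ± 0.13 in SCC6 (adjusted p = 0.459) and -0.17 ± 0.13 in SCC25 (adjusted p = 0.574). The blocked intervals across lines, -0.18 to 0.38 for MALAT1 and -0.24 to 0.28 for NEAT1, left out a change of 1 log2 unit in either direction. The test of a different response between lines did not pass for either gene with the block (adjusted p = 0.165 for MALAT1 and 0.210 for NEAT1) or without it (0.991 and 1), in a comparison where 1.29% and 0% of genes were called. DESeq2 called 1.67% there and neither member.

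**Figure D2:**
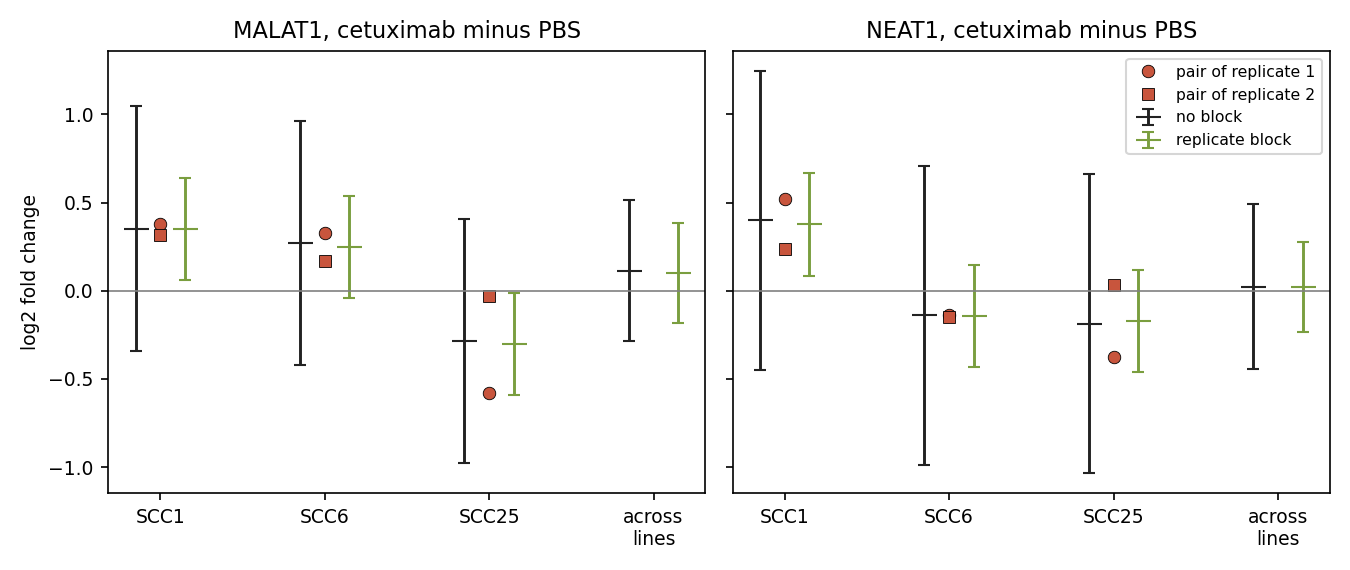
Log2 fold change, cetuximab minus PBS, of MALAT1 and NEAT1 in each line and across lines. Points are the ratios within replicate 1 (circles) and replicate 2 (squares), and bars are edgeR estimates with 95% confidence intervals without the replicate block (black) and with it (green). The pairs of SCC1 lie above 0 for both genes, and the unblocked intervals all include 0. The blocked intervals leave out 0 for both genes in SCC1 and for MALAT1 in SCC25, where neither gene passed after adjustment, and include it elsewhere.

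NEAT1 differed between replicates in a way that the replicate numbers shared. It was higher in replicate 1 than in replicate 2 in 6 of 6 groups, as were 13.7% of all genes. The excess was largest in SCC6, at 1.97-fold with PBS and 1.99-fold with cetuximab, and smallest in treated SCC25, at 1.02-fold. In the fit with a replicate term shared by the lines, replicate 2 minus replicate 1 was -0.56 ± 0.13 on the log2 scale (adjusted p = 0.0110), in a comparison where 26.6% of all genes were called. MALAT1 was higher in replicate 1 in 5 of 6 groups, where 26.1% of all genes were so in 5 or 6, and its shared replicate term of -0.27 ± 0.16 did not pass (adjusted p = 0.241). Within SCC6 alone the replicate terms were -0.99 ± 0.13 for NEAT1 (adjusted p = 0.00643) and -0.79 ± 0.13 for MALAT1 (adjusted p = 0.00912), where 14.9% of genes were called. In SCC1 and SCC25 neither gene's term passed, where 1.21% and 19.2% of genes were called. The NEAT1 term in SCC1 was -0.46 ± 0.13 (adjusted p = 0.104 by edgeR). The median share of mitochondrial UMIs per cell was higher in replicate 2 in 6 of 6 groups, for example 3.51% against 5.67% in untreated SCC6, and its part in the replicate difference was not tested.

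Nearly every cell carried both RNAs. After each cell was thinned at random to 15000 UMIs, with 14 to 262 shallower cells per sample left out, MALAT1 had a UMI in 99.8% to 100% and NEAT1 in 96.8% to 99.7% of the cells of a sample. Without thinning and over all cells, 0 to 3 cells of a sample lacked a MALAT1 UMI and 2 to 12 lacked a NEAT1 UMI. The median cell held 77 to 193 MALAT1 UMIs per 15000, lowest in untreated SCC6 replicate 2 and highest in treated SCC1 replicate 1. For NEAT1 the median cell held 5 to 25, lowest in both replicate 2 samples of SCC6 and highest in untreated SCC25 replicate 1 and treated SCC25 replicate 2.

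NEAT1 was spread more widely over cells than MALAT1 in every sample. The ratio of the 90th to the 10th percentile of cells was 3.87 to 7.22 for MALAT1 and 6.50 to 22.5 for NEAT1, with that of NEAT1 at 15.8 or more in all 4 SCC25 samples and at 11.5 or less in the 8 others. How many other genes part SCC25 in this way was not counted. The 10% of cells with most NEAT1 held 27.7% to 39.1% of its UMIs, and that with most MALAT1 held 21.4% to 34.2% of its own. Neither measure removes counting noise, and the 10th percentile lay at 2 to 6 UMIs for NEAT1 and at 33 to 88 for MALAT1. The spread beyond counting noise was taken as the excess coefficient of variation, the square root of variance minus mean over squared mean. It was 53.0% to 106% for MALAT1 and 74.0% to 130% for NEAT1. By line, NEAT1 stood at 96.2% to 130% in SCC1, 74.0% to 111% in SCC6 and 99.4% to 120% in SCC25. By this measure SCC25 was not set apart from SCC1. In each sample, the squared excess was larger than that of 75.4% to 94.6% of 3734 genes for MALAT1 and of 89.4% to 96.8% for NEAT1.

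**Figure D3:**
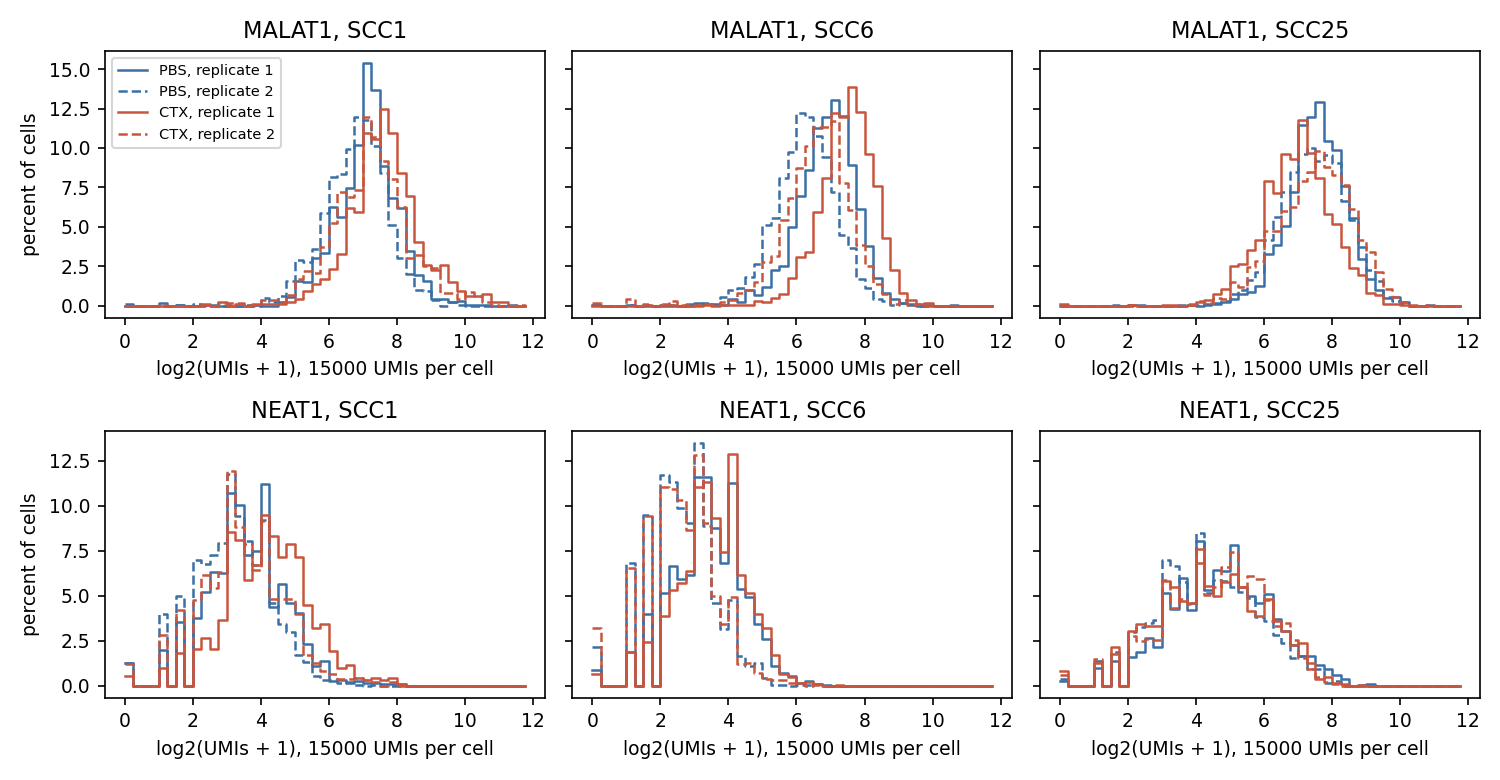
Percent of cells by log2(UMIs + 1) of MALAT1 (top) and NEAT1 (bottom) in cells thinned to 15000 UMIs, for each line, with PBS in blue, cetuximab (CTX) in red, replicate 1 as solid and replicate 2 as dashed lines. Each sample forms a single broad peak for MALAT1, and NEAT1 reaches farther to the right in SCC25 than in SCC6. The comb at low values comes from whole UMI counts.

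The spread of neither RNA changed by the test after cetuximab. In SCC1, the excess coefficient of variation of MALAT1 was 84.3% and 68.5% with PBS and 98.0% and 106% with cetuximab, groups that did not overlap, as for 34% of the 3734 genes in that direction. The squared value differed by 0.84 ± 0.33 on the log2 scale with an interval from 0.08 to 1.59, which did not pass by limma over 3734 genes (unadjusted p = 0.0330, adjusted p = 0.404). Without thinning it was 0.15 ± 0.40 (adjusted p = 0.999 by limma). Without the 1% of cells with most of the gene it was 1.00 ± 0.21 (unadjusted p = 0.00203, adjusted p = 0.0917 by limma), where the median of all genes was 0.34. With all thinned cells, the median difference of all genes in SCC1 was 0.28, and 0.0536% of genes were called, with 0.0268% in SCC6 and 0% in SCC25. In SCC6 the MALAT1 difference was -0.21 ± 0.33 and in SCC25 0.31 ± 0.33. For NEAT1 the difference was 0.36 ± 0.43 in SCC1, 0.26 ± 0.43 for SCC6 and -0.32 ± 0.43 in SCC25. Across lines it was 0.31 ± 0.22 for MALAT1 and 0.10 ± 0.24 for NEAT1, with adjusted p of 0.622 and 0.926 by limma, where 0% of genes were called and 432 passed an unadjusted p of 0.05. A response of spread that differed between lines did not pass for either (adjusted p = 1 by limma, 0.0268% of genes called).

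Cells with fewer UMIs carried more of both RNAs per 15000 UMIs. The 20% of cells with fewest UMIs were set against the 20% with most, in each sample. For MALAT1 the ratio of the medians was 1.52 to 3.65, and for NEAT1 it was 1.44 to 4.64, above 1 in 12 of 12 samples for both. In treated SCC1 replicate 1, for example, the median MALAT1 count was 452.5 in the shallow cells and 124 in the deep ones, against 187 and 118 in untreated SCC1 replicate 1. The deep cells of treated and untreated SCC1 lay close together for MALAT1, at 124 and 103.5 against 118 and 105.5, and the shallow cells lay apart, at 452.5 and 281 against 187 and 168.5. In SCC25 the median NEAT1 count of the deep cells was 12 and 11 with cetuximab and 20 and 11 with PBS, and that of the shallow cells was 41.5 and 51 against 37.5 and 35. The deep cells were not of like depth. Those of SCC1 had a median of 98218 and 95219.5 total UMIs with cetuximab against 79207 and 83520 with PBS. Those of SCC25 had 70422.5 and 83113 against 56615 and 70216. The part of this depth difference was not tested. The shallow cells of SCC1 had a median of 26088.5 and 28926.5 total UMIs with cetuximab against 27311 and 31300.5 with PBS. How many other genes part treated from untreated SCC1 in shallow cells was not counted. These sets of cells were compared after their values were seen and carry no test. Within a sample, cells with a larger mitochondrial share also carried more of both: the 20% with the largest share held 1.21 to 2.52 times the median MALAT1 and 1.11 to 5.78 times the median NEAT1 of the 20% with the smallest share, in 12 of 12 samples.

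**Figure D4:**
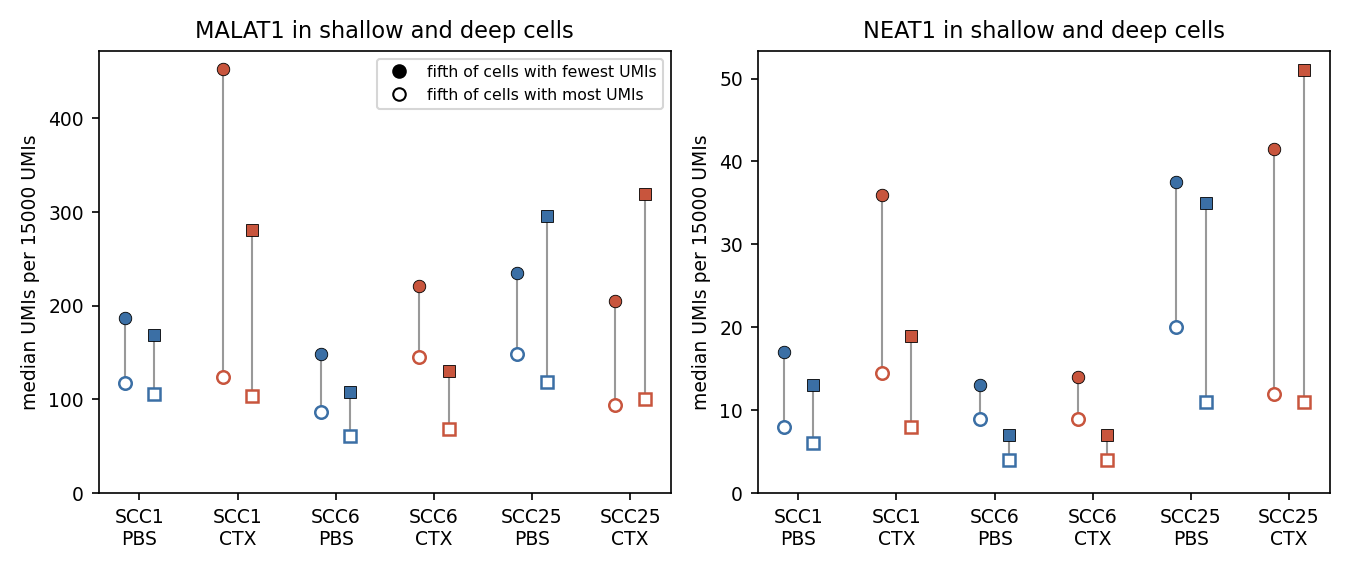
Median UMIs of MALAT1 and NEAT1 per 15000 UMIs in the 20% of cells with fewest UMIs (filled) and with most UMIs (open) of each sample, with PBS in blue, cetuximab (CTX) in red, replicate 1 as circles and replicate 2 as squares. The filled point lies above the open one in all 12 samples, by 1.52 to 3.65 times for MALAT1.

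MALAT1 and NEAT1 were the genes most like each other across cells. Pearson r of log2(UMIs + 1) in thinned cells was taken in each sample against all other 3785 genes with a mean of at least 0.5 UMIs, and averaged over the 12 samples. These r describe cells that share a library, and they carry no test. The mean r of MALAT1 with NEAT1 was 0.507 and ranked 1 from both sides, at 0.365 to 0.435 in the 4 SCC6 samples and 0.446 to 0.620 in the 8 others. NEAT1 ranked 1 for MALAT1 in 9 of 12 samples and MALAT1 ranked 1 for NEAT1 in 8, and either ranked 2 in the rest. The median mean r over all genes was -0.03 for both members. Once log2 total UMIs and log2 mitochondrial share were regressed out of both, r between them was 0.316 to 0.5.

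The next genes for MALAT1 were of the mitochondrial genome, MT-CO1, a subunit of cytochrome c oxidase, with a mean r of 0.385, and MT-CYB, cytochrome b, with 0.281. For NEAT1 they were MT-CO1 with 0.402 and the nuclear gene FTH1, the heavy chain of the iron store ferritin, with 0.337. FTH1 was positive in 11 of 12 samples, and without thinning its mean r of 0.252 ranked 72, whereas MT-CO1 ranked 2 with and without thinning. MT-CO1 ranged from 0.0748 to 0.626 with NEAT1, and its mean was 0.166 in SCC6 and 0.521 in SCC25. The most negative genes, named after their values were seen, were RAN, a GTPase of nuclear transport, at -0.441 with MALAT1 and -0.452 with NEAT1, PFN1, an actin-binding protein, at -0.437 with MALAT1, and HMGB1, a chromatin protein, at -0.465 with NEAT1. RAN was negative in all 12 samples with both members.

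**Figure D5:**
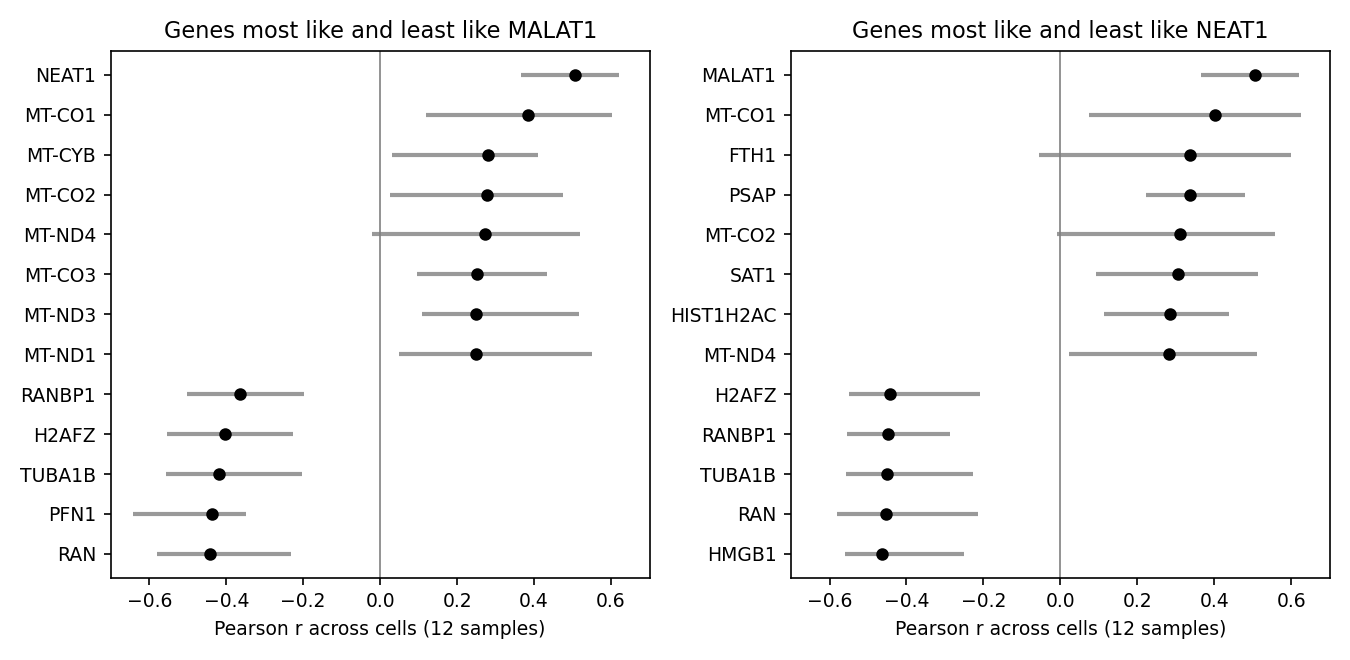
Pearson r across thinned cells with MALAT1 (left) and NEAT1 (right) for the 8 genes with the highest and the 5 with the lowest mean, with the mean over 12 samples as a point and the lowest to highest sample as a bar. MALAT1 and NEAT1 head each other's list at 0.507, and RAN, TUBA1B, H2AFZ and RANBP1 stand at the lower end of both.

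The proteins of the bodies that these RNAs join were described by counts and medians. Of the 16 paraspeckle protein genes, 13 reached the minimum level, and these had a median r of -0.13 with NEAT1 across cells, with 2 of them positive. For the nuclear speckle and splicing proteins, the median r with MALAT1 was 0.01, with 11 of 17 positive. The 79 ribosomal protein genes measured had medians of -0.11 with MALAT1 and -0.13 with NEAT1, with 1 and 2 positive. Squamous basal genes stood at 0.08 and 0.13, with 12 and 11 of 13 positive. Of all 3785 genes, 1456 had a positive mean r with MALAT1 and 1423 with NEAT1.

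After cetuximab, 0 of 16 paraspeckle protein genes were called across lines without the replicate block, beside 3.67% of all genes. Their median log2 difference was -0.15, against 0.01 for all genes. With the block 2 were called, both lower, a share near the 11.6% of all genes called there. These were DAZAP1, an RNA-binding protein, at -0.35 ± 0.08 (edgeR adjusted p = 0.0271), and HNRNPA1, which binds RNA and acts in splicing, at -0.39 ± 0.07 (adjusted p = 0.0162). HNRNPA1 went from 1388 and 1062 CPM to 906 and 878 in SCC6, groups that did not overlap, as for 21.4% of all genes in that direction. In SCC6 alone the block gave 4 calls, all lower, where there were 0 without it and where 20.1% of all genes were called with it. Of the 18 nuclear speckle and splicing genes, 0 were called across lines with or without the block, at a median of -0.17, and 1 of them, U2AF2, in SCC6 with the block at -0.53 ± 0.13 (adjusted p = 0.0262). U2AF2 and SRSF3, splicing factors with the smallest p of that list, were at -0.31 ± 0.12 and -0.28 ± 0.12 (adjusted p = 0.168 and 0.201). At an unadjusted p under 0.05 by edgeR both of these passed across lines, as did DAZAP1 and HNRNPA1, beside 3757 of all 17897 genes. Each was named for having the smallest p of its list, so no conclusion about the lists is drawn from this.

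Of the 16 snoRNA host genes other than the named members, 0 were called in any line or across lines without the block, and their median difference across lines was -0.37, with 1 of 16 above 0. SNHG7 stood at -0.55 ± 0.19 across lines (adjusted p = 0.121), and passed with the block at -0.52 ± 0.14 (adjusted p = 0.0419). SNHG15 stood at -1.16 ± 0.28 in SCC6 (adjusted p = 0.0508), from 95.2 and 60.4 to 29.9 and 39.9 CPM, and passed there with the block at -1.13 ± 0.25 (adjusted p = 0.0179). The block gave 7 calls of this list in SCC6, 6 lower and 1 higher, beside 20.1% of all genes. The ribosomal protein genes had a similar median of -0.36 across lines, with 9 of 80 called lower, and 71 with the block. The shares of all genes called there were 3.67% and 11.6%.

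Among 19 other long noncoding RNAs tested, MIR22HG, the host of miR-22, rose across lines by 0.80 ± 0.19 (adjusted p = 0.0418), where 3.67% of all genes were called. It was at 4.81 and 4.31 CPM with PBS and 10.5 and 6.91 with cetuximab in SCC1, at 4.19 and 5.54 against 12.3 and 9.96 in SCC6, and at 19.1 and 24.3 against 20.7 and 31.8 in SCC25. The groups overlapped in SCC25 alone, and 22.3% and 25.5% of all genes lay higher without overlap in SCC1 and SCC6. FTX, an RNA of the X-inactivation region, was at 0.68 ± 0.28 (adjusted p = 0.179). KCNQ1OT1, an antisense RNA of an imprinted cluster, rose in SCC6 by 1.13 ± 0.26 (adjusted p = 0.0398), and is named because it was the only call of this list in a single line without the block. Of all genes, 3.81% were called in SCC6 without the block. With the block 2 genes of the list rose in SCC1, beside 4.45% of all genes called, and 6 in SCC6, beside 20.1%, among them FTX in SCC6 at 1.25 ± 0.29 (adjusted p = 0.0205). The median of the list across lines was 0.19.

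The neighbours of the RNAs that were not analysed here were also given. IGF2, the growth factor gene beside H19, was at 19.6 and 8.74 CPM in untreated SCC1, 13.8 and 4.30 in untreated SCC6 and 3.71 and 1.18 in untreated SCC25. With cetuximab it was at 34.3 and 7.32, 20.9 and 4.86, and 2.51 and 1.39, and its difference across lines was 0.26 ± 0.49 (adjusted p = 0.816). Like NEAT1, IGF2 was higher in replicate 1 in 6 of 6 groups. Of 15 imprinted genes tested, SNRPN, a spliceosomal protein gene, rose across lines by 0.45 ± 0.11 (adjusted p = 0.0444), where 3.67% of all genes were called. With the block 4 of the list were called, 3 higher and 1 lower, beside 11.6% of all genes. IGF2R, the receptor that clears IGF2, was at 0.64 ± 0.18 (adjusted p = 0.0730) and passed with the block at 0.64 ± 0.08 (adjusted p = 0.00738). In SCC6, CDKN1C, a cell cycle inhibitor, rose by 1.45 ± 0.29 (adjusted p = 0.0263) and PHLDA2 fell by 1.52 on the log2 scale (SE 0.32, adjusted p = 0.0304). Both are named because the list held 3 calls there, the third being KCNQ1OT1, beside 3.81% of all genes.

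TP63, the master factor of squamous epithelium, was at 22.9 and 15.8 CPM in untreated SCC1, 14.1 and 6.81 in untreated SCC6 and 71.9 and 31.8 in untreated SCC25. With cetuximab it was at 18.7 and 14.4, 21.5 and 12.5, and 55.6 and 33.0. It did not pass across lines, at 0.08 ± 0.28 (adjusted p = 0.914), and passed in SCC6 with the block at 0.74 ± 0.15 (adjusted p = 0.0134). TP63 too was higher in replicate 1 in 6 of 6 groups. Of the 17 squamous basal genes, PITX1, a homeobox factor, fell across lines by 0.67 on the log2 scale (SE 0.16, adjusted p = 0.0383) and SOX15 by 0.43 (SE 0.11, adjusted p = 0.0490), while the median of the list was 0.08. Of all genes, 3.67% were called across lines without the block. In SCC6, SOX2, a factor of squamous progenitors, fell by 3.12 on the log2 scale (SE 0.64, adjusted p = 0.0288), named because it was called. With the block 10 genes of this list were called in SCC6, 5 in each direction, beside 20.1% of all genes. Among 8 genes reported as targets of miR-205, 0 were called across lines without the block. INPPL1, an inositol phosphatase, was at 0.45 ± 0.12 (adjusted p = 0.0599), and passed with the block at 0.44 ± 0.10 (adjusted p = 0.0303).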

How the data were processed

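The authors deposited UMI counts per gene and cell, 1 table per line, as raw counts. According to the methods they had filtered and aligned reads with Cell Ranger to GRCh38, per the labels, and kept cells with Monocle. The Cell Ranger version, the annotation and the cell filter are not given in the sources used here, and 0 columns of per-sample values were left unused. The members and the gene lists were chosen with earlier results of these data known. Counts were summed per sample and tested with edgeR 4.0.16 (filterByExpr, TMM, quasi-likelihood F-test, 6 groups in 1 fit), so the study's own test over cells was not followed. DESeq2 1.42.0 and a replicate block were alternatives. Spread was tested with limma 3.58.1 on log2(excess squared coefficient of variation + 0.01), in genes with a mean of at least 0.5 UMIs in cells thinned to 15000 UMIs. Same-numbered replicates deviated together (r over genes 0.642 in SCC1, 0.540 in SCC6 and 0.688 in SCC25), so the numbers pair the samples. The edgeR fits without a block and with the nested block, and the limma fit without a block, were tested on simulated data for changes within a line. The fits across lines, the tests between lines, the shared replicate block and DESeq2 were not. Genes are named by rule: the 6 listed RNAs, IGF2 and TP63, the 3 genes most like each member across cells, and from each list the 2 genes of mean 10 or more CPM with the smallest p across lines, any other name being given as such. One gene that this rule names and 1 sequence are not reported here. Transcript sequences are from the GENCODE annotation lifted to GRCh37, and doublets were not removed.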

Additional observations from a re-analysis of the deposited data

Results flagged for a closer look

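The direction after cetuximab was opposite in both replicate pairs of 1 line against both pairs of another for 3 comparisons, and the difference itself was tested by edgeR and did not pass in any of them. MALAT1 was higher with cetuximab in both pairs of SCC1 and SCC6 and lower in both pairs of SCC25. Its change in SCC25 minus that in SCC1 was -0.64 ± 0.44 on the log2 scale (adjusted p = 1, and 0.390 with the replicate block), and its change in SCC25 minus that in SCC6 was -0.55 ± 0.44 (adjusted p = 0.815, and 0.167 with the block). NEAT1 was higher in both pairs of SCC1 and lower in both pairs of SCC6. The difference was -0.54 ± 0.54 (adjusted p = 0.901, and 0.185 with the block). With the block these 3 differences were -0.65 ± 0.18, -0.55 ± 0.18 and -0.52 ± 0.18, in the order given. Their intervals ran from -1.06 to -0.24, -0.96 to -0.14 and -0.93 to -0.11. These leave out 0 before the adjustment over genes, and none of the 3 passed after it. Of all 17897 genes, 0 were called in each comparison without the block, and 4, 109 and 298 with it. The number of other genes with such opposite pairs was not counted.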

How the results depend on the processing

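Neither RNA was called after cetuximab, for level or spread, under any alternative run, so changes of direction were between values that did not pass. For level, NEAT1 in SCC6 turned to 0.11 with library totals alone, to 0.014 with totals without ribosomal protein and mitochondrial genes, and to 0.078 with cells weighted equally, and in the depth band NEAT1 in SCC25 turned to 0.14 and MALAT1 in SCC25 was -0.032 (the last 2 settings were chosen after seeing the data). For spread, NEAT1 turned to -0.061 in SCC6 and across lines without cells over 20% mitochondrial UMIs, and to -0.020 in SCC6 without the top 1% of cells. Leaving out each sample gave level ranges of 0.21 to 0.47, -0.23 to 0.66 and -0.54 to -0.050 for MALAT1 in SCC1, SCC6 and SCC25, -0.033 to 0.22 for MALAT1 across lines, and 0.062 to 0.67, -0.72 to 0.43, -0.39 to 0.044 and -0.11 to 0.18 for NEAT1 in SCC1, SCC6, SCC25 and across lines. It gave spread ranges of 0.54 to 1.13 and -0.54 to 0.12 for MALAT1 in SCC1 and SCC6, and of 0.058 to 0.67, -0.32 to 0.84, -0.53 to -0.12 and -0.065 to 0.23 for NEAT1 in SCC1, SCC6, SCC25 and across lines. Without thinning, the MALAT1 spread difference in SCC1 was 0.15, and without the top 1% of cells it was 1.00. Between untreated SCC6 and SCC1, leaving out each sample gave -0.46 to 0.25 for MALAT1 and -0.61 to 0.37 for NEAT1. MALAT1 in SCC25 against SCC1 passed with no low-count filter (0.73), where 7529 of 25899 genes did, and with the shared replicate block (0.74). Against SCC6 it passed with library totals alone (0.95), where 7093 of 17897 genes did, and with no filter (0.78), where 7662 of 25899 did. It also passed against SCC6 with the shared replicate block (0.83), DESeq2 (0.82) and cells weighted equally (0.97). The share of all genes passing with cells weighted equally was not counted. Over the samples left out, the MALAT1 difference from SCC6 ranged from 0.48 to 1.19. NEAT1 in SCC25 against SCC1 ranged from 1.47 to 1.90. With the nested replicate block, genes called across lines numbered 1 for snoRNA hosts, 2 for paraspeckle proteins, 4 for imprinted genes, 2 for miR-205 targets and 71 for ribosomal protein genes. With DESeq2 they numbered 2 for other long noncoding RNAs, 2 for paraspeckle proteins, 3 for imprinted genes, 4 for squamous basal genes, 2 for miR-205 targets and 44 for ribosomal protein genes. Of all genes, 11.6% were called across lines with the nested block and 10.1% with DESeq2. The block changed no other call of a member. Each sample held 39734 or more UMIs of either RNA, and the intervals printed give the precision that 2 samples a group allowed.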
